A study of Mus musculus with 16 samples.

Results

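RNA of T cells, NK cells and B cells was examined in CD11b+ myeloid cells sorted from the mouse brain, through 9 marker genes (Cd3e, Cd3g, Cd3d, Nkg7, Gzma, Cd79a, Cd79b, Ms4a1 and Ptprcap) of the 18580 genes in the tables. The genes were chosen by name, each matched through its RefSeq transcript to its mouse symbol, and a gene missing from a table was taken as 0. All 9 were listed in at least 2 of the 16 libraries. By the methods, macrophages (CD11b+, CD45 high) and microglia (CD11b+, CD45 low to intermediate) were sorted from the same brains. In 1 pair, named below, the Y-linked counts of the 2 libraries differ. The mice were CD163KO (allele CD163tm1.1(KOMP)Vlcg) and WT C57BL/6N littermates, of both sexes. They had received murine α-syn as monomers (MONO) or preformed fibrils (PFF) in both striata 2 months earlier, at 12 weeks of age. CD163 is a scavenger receptor of macrophages, the knockout was not limited to 1 cell type, and no group without α-syn was analysed here. The methods state that the macrophage gate, of 10000 to 30000 cells against 200000 to 500000 for microglia, holds border-associated and infiltrated macrophages as well as neutrophils and NK cells. SMART-seq2, which copies full-length mRNA and does not keep its strand, gave 1 library for each combination of population, sex, genotype and treatment. By the labels, each of the 8 groups of population, genotype and treatment thus holds 1 female and 1 male library. Brains of 4 to 7 mice per combination were used, and the sources do not give whether a table is 1 of the sequenced triplicates or all of them pooled, so the spread between libraries may be technical in part.

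T cells recognise antigen through a receptor that signals through the CD3 chains (Cd3e, Cd3g, Cd3d), and B cells through a membrane antibody that signals through Cd79a and Cd79b, which are known to work as a pair. NK cells carry neither receptor and kill with granules that hold granzymes such as Gzma, which cytotoxic T cells share, together with the granule membrane protein Nkg7. Ms4a1 encodes CD20 of mature B cells, and Ptprcap encodes a small protein bound to the phosphatase CD45 in lymphocytes. Few lymphocytes reside in the healthy brain, most of them at its borders.

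The receptor chains among these genes share a coding feature, the immunoreceptor tyrosine-based activation motif, which kinases phosphorylate when the receptor is engaged. It was sought as a tyrosine followed after 2 residues by a leucine or isoleucine, then 6 to 8 residues, then the same tyrosine and leucine or isoleucine spacing. Of the 9 genes, 5 held it once (Cd3e, Cd3g, Cd3d, Cd79a and Cd79b). Of the 21591 coding genes of GENCODE vM21 searched, 616 held it at least once (2.853%), and Nkg7, Gzma, Ms4a1 and Ptprcap held no match. The coding bases (GRCm38, given on the strand of the gene) are shown with the codons of the 2 tyrosines and of the 2 leucines or isoleucines in capitals, because the comparisons of the CD3 chains, Cd79a and Cd79b turn on these genes. Tyrobp and Fcer1g, adaptors of myeloid and NK cells with the same motif, are shown for comparison.
Cd3e: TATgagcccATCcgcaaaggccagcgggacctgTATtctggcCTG
Cd3g: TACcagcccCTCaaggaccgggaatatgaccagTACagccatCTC
Cd3d: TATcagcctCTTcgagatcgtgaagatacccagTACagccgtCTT
Cd79a: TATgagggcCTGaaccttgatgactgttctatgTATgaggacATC
Cd79b: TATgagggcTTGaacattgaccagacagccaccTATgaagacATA
Tyrobp: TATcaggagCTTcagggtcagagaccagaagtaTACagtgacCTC
Fcer1g: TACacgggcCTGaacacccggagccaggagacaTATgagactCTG

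In all 7 genes the 45 bases were divided between 2 coding exons. They lie at chr9:44999549-45000440 on the minus strand in exons 7 and 8 of Cd3e, at chr9:44970735-44971268 on the minus strand in exons 5 and 6 of Cd3g, and at chr9:44986095-44986311 on the plus strand in exons 4 and 5 of Cd3d. The stretch of Cd79a lies at chr7:24901296-24901469 on the plus strand in exons 4 and 5, and that of Cd79b at chr11:106311867-106312012 on the minus strand in exons 5 and 6. Those of Tyrobp (chr7:30415670-30417382, plus strand) and Fcer1g (chr1:171229889-171230072, minus strand) lie in exons 4 and 5. Between Cd79a and Cd79b 31 of the 45 bases were identical, and between Cd3g and Cd3d 32.

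Whether reads of a gene could belong to another was examined with words of 50 bases. For Cd3g, Nkg7, Gzma, Cd79b and Ms4a1, no word of the transcript was found in a transcript of another gene, read on either strand. For Cd3d it was 0.32% of the words, for Cd3e 6.16% and for Cd79a 8.31%, the last in the pseudogene Gm32220. Ptprcap was the exception, with 94.65% of its words in Rps6kb2, a kinase gene on the opposite strand with a GENCODE transcript whose exons cover 100% of the Ptprcap exons. Without strand, reads of that transcript cannot be told apart from those of Ptprcap. In the RefSeq annotation (GRCm38.p6), however, the 2 genes do not overlap and lie 81 bases apart, and the counts are of RefSeq transcripts. Rps6kb2, named after its values were seen, had 36 to 692 estimated counts in the 8 microglia libraries, of which 5 held 0 counts of Ptprcap. In the macrophage library with the most Ptprcap, 773 counts, Rps6kb2 was at 0.

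Before the results, some libraries stood apart. The estimated counts of a library summed to between 8648751 and 21433841, for which 3 counts are 0.14 to 0.35 CPM (counts scaled to the library total). The male PFF-WT macrophage library listed 9524 transcripts and the male MONO-CD163KO macrophage library 11800, against 13819 to 16626 in the other 6, and the same 2 combinations had the fewest microglia genes with an FPKM of at least 1 (7288 and 8714, against 9748 to 10909). FPKM is the count scaled to transcript length and library. The study excluded MONO-CD163KO males for inconsistent technical replicates, so their libraries stay out of the tests, and their values are named. Cd163 had 0 to 1 counts in CD163KO macrophages and 748 to 5275 in WT macrophages, but 0 to 101 in WT and 5 to 23 in CD163KO microglia, so it does not check the genotype there. The microglia library labelled female MONO-CD163KO held 799 counts of 4 Y-linked genes, against 0 to 2 in the other 7 female libraries. Its paired macrophage library held 0, so the 2 libraries do not match in sex, and their shared brains rest on the labels. The defining markers of both populations were present. The summed FPKM of 10 border-associated macrophage genes was 1946 to 5305 in macrophages and 29.2 to 169 in microglia, and that of 11 homeostatic microglia genes was 937 to 1823 and 16985 to 43171.

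**Figure D1:**
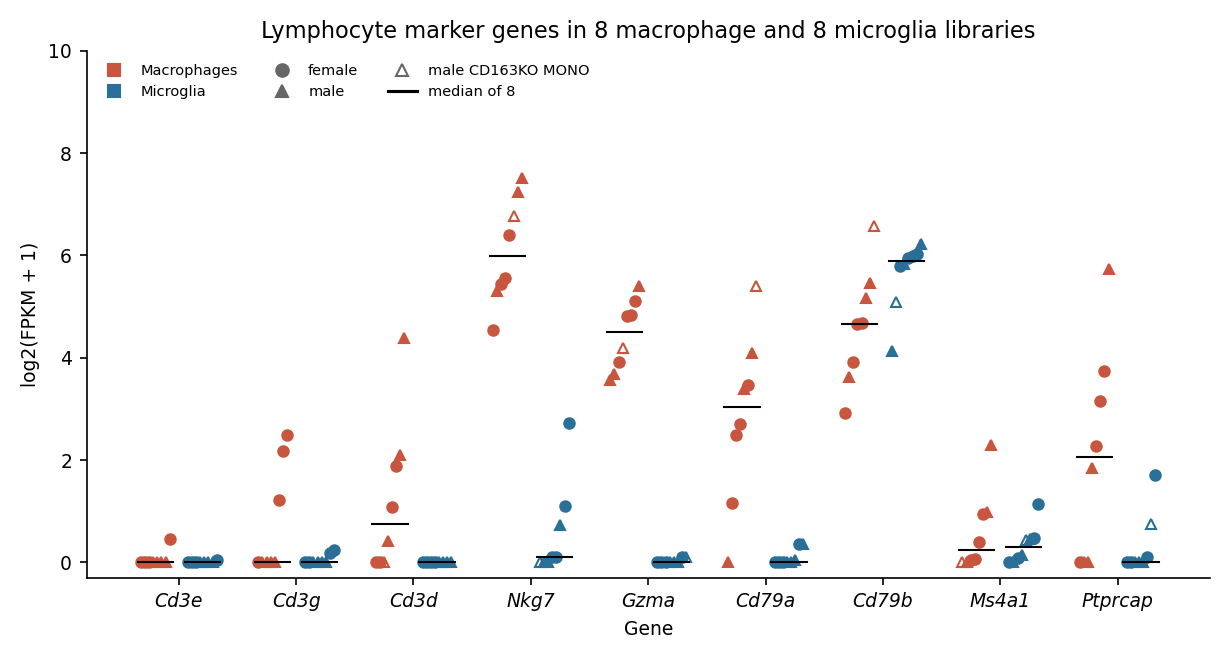
Level of each lymphocyte marker gene, as log2(FPKM + 1), in the 8 macrophage (red) and 8 microglia (blue) libraries. Circles are females, triangles are males, open triangles are the MONO-CD163KO males and bars are medians. Nkg7 and Gzma were above 10 FPKM in all macrophage libraries and at most 5.65 FPKM in microglia, the CD3 chains were at 0 in most libraries, and Cd79b is the gene that was high in microglia.

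The cytotoxic genes Nkg7 and Gzma were found in all 8 macrophage libraries, the B cell gene Cd79a in 7 and at least 1 CD3 chain in 6. In microglia, Cd79b was found in all 8 libraries and the other genes at 37 counts or fewer. Of the 9 genes, 8 passed the filter on low counts and were tested between the populations over 7 matched pairs of libraries. Of these, 5 were called higher in macrophages (edgeR's quasi-likelihood test, Benjamini-Hochberg adjusted p of at most 0.05 and a log2 fold change of at least 1): Cd3d, Nkg7, Gzma, Cd79a and Ptprcap. None was lower. Over all 13704 genes tested, 16.9% were called (1459 higher in macrophages, 852 lower). This split moved with the scaling, to 597 higher and 5707 lower with library totals only and to 605 and 5265 with limma, whereas Cd3d, Nkg7, Gzma, Cd79a and Ptprcap were higher and called in both. The median log2 fold change of the 8 was 7.59, or 7.46 with Cd3d, which was at 0 in all microglia, set to its bound, and that of all genes tested was -0.37. Within microglia alone, only Nkg7, Cd79b and Ms4a1 passed the filter, so the others entered through their macrophage counts. Their positive fold follows in part from this filter, and the median is a description only. In these bulk samples, fewer cells of a type and less RNA per cell cannot be told apart.

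Nkg7 (chr7:43437138-43438246) was the most abundant of the 9 in macrophages. In females it had 875 estimated counts in MONO-WT, 367 in PFF-WT, 433 in MONO-CD163KO and 387 in PFF-CD163KO, and in males 2176 in MONO-WT, 2559 in PFF-WT, 1555 in MONO-CD163KO and 613 in PFF-CD163KO. The male libraries of 3 of the 4 groups lay above all female libraries in counts and on library totals, and those of 2 with the TMM factors. In microglia the counts were 37, 1, 1 and 15 in females and 0, 0, 0 and 8 in males, in the same order, so that the populations did not overlap. The mean level was 80.5 ± 61.4 FPKM in macrophages and 1.09 ± 2.06 in microglia (SD, n = 7 each). The log2 fold change was 8.77 (SE 0.963, 95% interval 6.66 to 10.88, edgeR adjusted p = 7.71e-05).

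Gzma (chr13:113093824-113100981), a granule protease, was present in every macrophage library. It had 380, 251, 280 and 270 counts in females (MONO-WT, PFF-WT, MONO-CD163KO, PFF-CD163KO) and 654, 167, 270 and 206 in males. In microglia no library held more than 1 count. The sum over the 7 macrophage libraries was 2208 counts against 1 in microglia, a ratio per library total of 1895 with an exact 95% interval of 340 to 74882. Like all such intervals here, it covers counting error only and leaves out the variation between libraries. It also counts PCR copies as separate reads. The level in macrophages was 23.8 ± 11.8 FPKM (SD, n = 7), and the adjusted p of the edgeR test was 3.93e-06. Gzma had the highest ratio between the populations among the 8 genes with counts in both.

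The CD3 chains were sparse, and the 3 were not found together except in WT females given PFF. Cd3e (chr9:44998735-45009663) had 11 counts in PFF-WT female macrophages and 0 in the other 7 macrophage libraries, and at most 1 in microglia, and was too low to test. The summed ratio between the populations, 11 counts against 1, was 9.44 with an exact 95% interval of 1.37 to 406. Cd3g (chr9:44969572-44980431) had 62 counts in MONO-WT, 28 in PFF-WT and 42 in MONO-CD163KO female macrophages, 0 in the other 5 macrophage libraries and at most 3 in microglia. All of its macrophage counts were therefore from females. The populations overlapped at 0, and its log2 fold change of 5.21 (SE 2.03) was not called (edgeR adjusted p = 0.130).

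Cd3d (chr9:44981769-44987052), the neighbour of Cd3g at a distance of 1337 bases, had another distribution. It had 469 counts in PFF-WT, 88 in PFF-CD163KO and 8 in MONO-WT male macrophages, 48 in MONO-WT and 31 in PFF-WT female macrophages, and 0 in the other 3. All 8 microglia libraries were at 0. Summed over the 7 pairs, 644 counts in macrophages were at least 184-fold above the limit of 3 counts over the microglia group, and the adjusted p of the edgeR test was 0.0361. Of these 644 counts, 469 came from the male PFF-WT library, which held neither Cd3e nor Cd3g. Without the pair of female MONO-WT, female PFF-WT, male PFF-CD163KO or male MONO-WT libraries, the adjusted p was 0.0701, 0.0769, 0.0914 or 0.0543, and Cd3d was no longer called.

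The B cell receptor chains behaved differently from each other. Cd79a (chr7:24897497-24901858) had 178, 127, 87 and 19 counts in female macrophages (MONO-WT, PFF-WT, MONO-CD163KO, PFF-CD163KO) and 393, 0, 996 and 254 in males. It was highest in the excluded MONO-CD163KO males and at 0 in PFF-WT males. In microglia it had 6 counts in PFF-WT females, 6 in PFF-CD163KO males, 1 in PFF-WT males and 0 in the other 5. The mean level was 6.70 ± 5.57 FPKM in macrophages and 0.0886 ± 0.138 in microglia (SD, n = 7 each), with a log2 fold change of 7.79 (SE 1.73, edgeR adjusted p = 0.00829).

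Cd79b (chr11:106311341-106314562) was at 62.8, 54.4, 60.8 and 64.3 FPKM in female microglia (MONO-WT, PFF-WT, MONO-CD163KO, PFF-CD163KO) and at 73.3, 16.5, 33.0 and 55.8 FPKM in males. The 2 lowest were the microglia libraries with the fewest genes at an FPKM of at least 1. In macrophages it was at 24.5, 6.58, 14.2 and 24.2 FPKM in females and 42.8, 34.96, 93.9 and 11.3 FPKM in males. In FPKM, 6 of the 8 microglia libraries lay above all macrophage libraries other than that of MONO-CD163KO males. The edgeR test found no difference (log2 fold change -0.03, 95% interval -0.61 to 0.56, adjusted p = 0.952). Its size and call depended on the scaling, and its sign on the libraries. With library totals only, the edgeR fold was -1.46 (adjusted p = 0.0652), when the median of all genes moved from -0.37 to -1.96, and with limma on log2(FPKM + 1) it was called lower in macrophages at -1.36 (adjusted p = 0.0300), with a median of -1.12. Cd79b thus lay above the median of all genes in both edgeR fits and below it in that of limma. With the MONO-CD163KO males included or the PFF-WT males left out, the fold was 0.04 or 0.06.

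In microglia Cd79b was thus present without its partner. The sum over 7 libraries was 6400 counts of Cd79b against 13 of Cd79a. Per library there were 173 and 179 counts of Cd79b for each count of Cd79a in the 2 libraries with 6 counts of Cd79a, and at least 217 to 439 in the 5 libraries at 0, set against 3 counts. The microglia of PFF-WT males had 369 counts of Cd79b and 1 of Cd79a. In macrophages the ratio was 1.12 to 2.51 in 6 libraries, 18.4 in PFF-CD163KO females and at least 258 in PFF-WT males. Ms4a1 (chr19:11249679-11266149) had 0 to 21 counts in microglia.

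**Figure D2:**
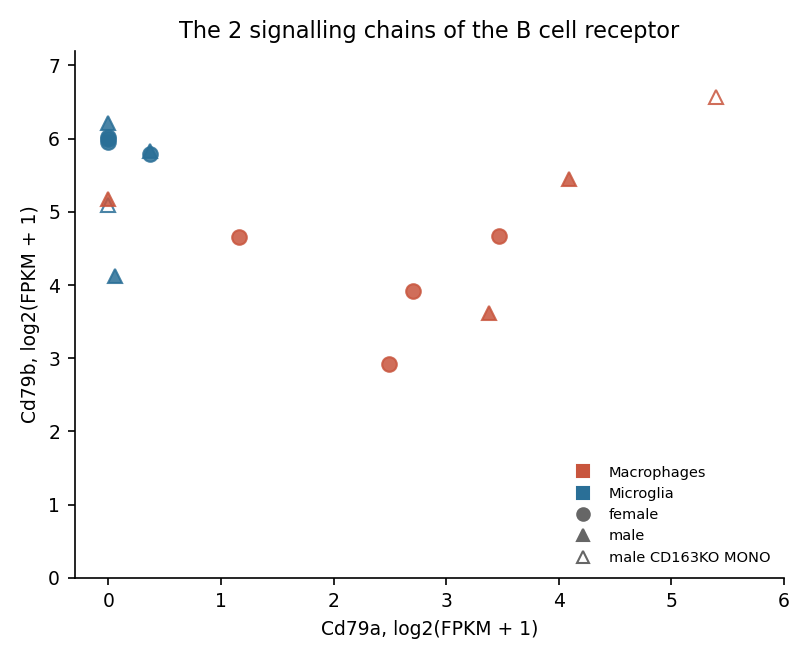
Cd79a (horizontal) and Cd79b (vertical) of each library, both as log2(FPKM + 1), with macrophages in red and microglia in blue, circles for females, triangles for males and open triangles for MONO-CD163KO males. The 8 microglia libraries stand at 0 to 0.29 FPKM of Cd79a with 16.5 to 73.3 FPKM of Cd79b, and 1 macrophage library, that of PFF-WT males, stands among them.

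Ms4a1 was low in both populations. In macrophages it had 26, 2, 8 and 1 counts in females (MONO-WT, PFF-WT, MONO-CD163KO, PFF-CD163KO) and 152, 0, 0 and 41 in males. In microglia it had 21, 13, 0 and 2 counts in females and 0, 4, 13 and 12 in males, so the populations overlapped. The log2 fold change of 2.18 had a 95% interval of -2.57 to 6.94 (edgeR adjusted p = 0.521).

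Ptprcap (chr19:4154646-4156710) had 137 counts in MONO-WT, 137 in PFF-WT, 0 in MONO-CD163KO and 37 in PFF-CD163KO female macrophages, and 0, 773, 0 and 44 in males. In microglia it had 31 counts in PFF-CD163KO females, 10 in MONO-CD163KO males, 1 in MONO-CD163KO females and 0 in the other 5. The log2 fold change of 7.39 (SE 2.18, edgeR adjusted p = 0.0392) was called, and 773 of the 1128 macrophage counts came from PFF-WT males. With the MONO-CD163KO males included, the adjusted p was 0.169, and without the female MONO-WT, female PFF-WT or male PFF-CD163KO pair it was 0.126, 0.139 or 0.121.

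**Figure D3:**
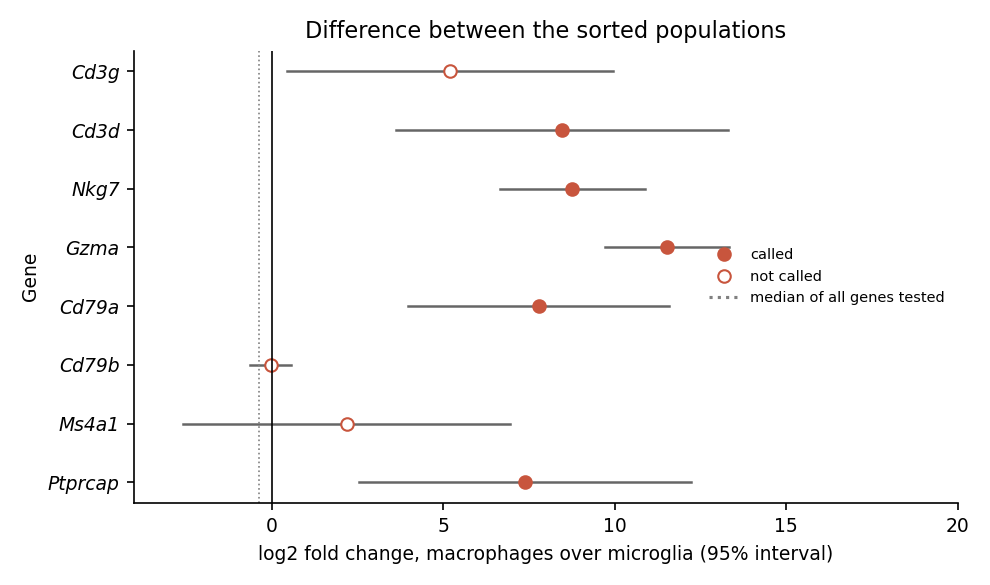
Log2 fold change between macrophages and microglia for the 8 genes tested, from edgeR over 7 matched pairs, with 95% intervals. Filled points were called, open points were not, and the dotted line is the median of all genes tested (-0.37). The interval of Gzma lies highest, and that of Cd79b is the narrowest and covers 0.

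Other genes of the same cell types were read in the same way. The share called over all genes tested, 16.9%, is the background of each list below. The medians hold only the genes that passed the filter on low counts. Of 24 further T cell genes, 18 were tested between the populations, 4 were higher in macrophages and 1 was lower, with a median log2 fold change of 3.14. By the mean FPKM over the 8 macrophage libraries, the 4 highest of the list were Cd4, Lat, Cd28 and Cd8b1, of which the last 3 owed their place to 1 library each. The other called genes, Cd2, Lck and Zap70, named after their values were seen, had 0 to 51, 0 to 125 and 0 to 50 counts in macrophages and at most 1, 23 and 1 in microglia. Cd4, the co-receptor of helper T cells that some myeloid cells also carry, had 182 to 977 counts in all 8 macrophage libraries and at most 4 in microglia (log2 fold change 10.53, edgeR adjusted p = 8.04e-05). It was found at 277 and 977 counts in PFF-CD163KO females and MONO-CD163KO males, where all 3 CD3 chains were at 0. Lat, an adaptor of the T cell receptor, had 785 counts in male PFF-WT macrophages and 0 to 37 in the other 7, and Cd28, a costimulatory receptor, had 1021 counts in MONO-CD163KO males and 0 to 159 in the others. Cd8b1, a chain of the CD8 co-receptor, had 256 counts in MONO-CD163KO males, 0 to 51.0 in the other macrophages and 3.61 to 30.6 in microglia. Lat, Cd28 and Cd8b1 were not called. Cd8a, the co-receptor of cytotoxic T cells, had 0 to 31 counts in macrophages and 0 to 71 in microglia. The gene that was lower in macrophages, named after its values were seen, was Il7r, the interleukin-7 receptor, with 28 to 639 counts in microglia and 0 to 248 in macrophages (log2 fold change -3.31, adjusted p = 0.0469).

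Of 18 further NK and cytotoxic genes found, 16 were tested, 6 were higher in macrophages and none was lower, with a median log2 fold change of 6.68, or 4.99 with the 7 genes at 0 in the 7 microglia libraries tested set to their bound. Ccl5, a chemokine of cytotoxic lymphocytes, had 642 to 2141 counts in macrophages and 25 to 87 in microglia (log2 fold change 5.72, edgeR adjusted p = 6.28e-06). Klrk1, which encodes the activating receptor NKG2D, had 25 to 1409 counts in macrophages and 0 to 3 in microglia (9.36, adjusted p = 4.18e-05). Cd7 had 0 to 1114 counts in macrophages and at most 1 in microglia (11.57, adjusted p = 0.00149). Klrd1, the partner of NKG2 receptors, had 0 to 230 counts in macrophages and 0 to 53 in microglia, and was not called. Ncr1, the receptor that defines NK cells, had 47 counts in PFF-CD163KO males, 21 in MONO-WT males, 20 in PFF-WT females and 15 in MONO-WT females among macrophages and at most 2 in the other 4. In microglia it had 12 counts in MONO-WT males and 0 to 1 in the others.

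Of 16 further B cell genes found, 14 were tested, 4 were higher in macrophages and none was lower, with a median log2 fold change of 4.13, or 4.01 with the 4 genes at 0 in the 7 microglia libraries tested set to their bound. Cd72, which macrophages are known to express as well, was at 63.0 to 202 FPKM in macrophages and 7.27 to 26.9 in microglia (log2 fold change 3.83, edgeR adjusted p = 3.38e-06). Jchain, which joins antibodies of plasma cells, had 189 to 3638 counts in macrophages and at most 5 in microglia (10.39, adjusted p = 8.92e-07). Ly6d had 1129 counts in MONO-WT males, 0 in PFF-WT males and 56 to 182 in the other macrophages, with at most 1 in microglia (10.42, adjusted p = 5.67e-05). Tnfrsf13b, a receptor for B cell survival factors, was at similar levels in both populations, 3.69 to 24.4 FPKM in macrophages and 5.54 to 23.0 in microglia. Jchain was highest, at 3638 counts, in the PFF-WT males that held no Cd79a, and MONO-WT males held the second highest count of both (2147 and 393).

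Of 7 B cell precursor genes, 4 were tested and none was called, with 1 at an unadjusted p under 0.05 in edgeR. Vpreb3 had 0 to 169 counts in macrophages and Vpreb1, of the surrogate light chain, 0 to 96, and Igll1 had 0 to 17 and Rag1, which recombines antigen receptor genes, 0 to 61. Rag1 was above 3 counts in MONO-WT males only among macrophages. Of the 5 group 2 innate lymphoid genes found, 2 were tested and none was called, with none at an unadjusted p under 0.05. Il1rl1, the interleukin-33 receptor, was at 0.17 to 10.2 FPKM in macrophages and 0.85 to 6.18 in microglia, and Gata3 had at most 15.90 and 18.95 counts. Of 8 genes shared by lymphocytes and myeloid cells, 7 were tested, 6 were higher in macrophages and 1 was lower, with a median log2 fold change of 5.12. Cd52, a surface glycoprotein, was at 759 to 2525 FPKM in macrophages and 71.2 to 256 in microglia. Ltb was at 8.87 to 53.0 FPKM in macrophages and 2.30 to 16.6 in microglia, and Cxcr3 at 4.20 to 32.6 and 0 to 2.49. The gene that was lower, named after its values were seen, was Ets1, a transcription factor (log2 fold change -1.82, edgeR adjusted p = 0.00166).

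**Figure D4:**
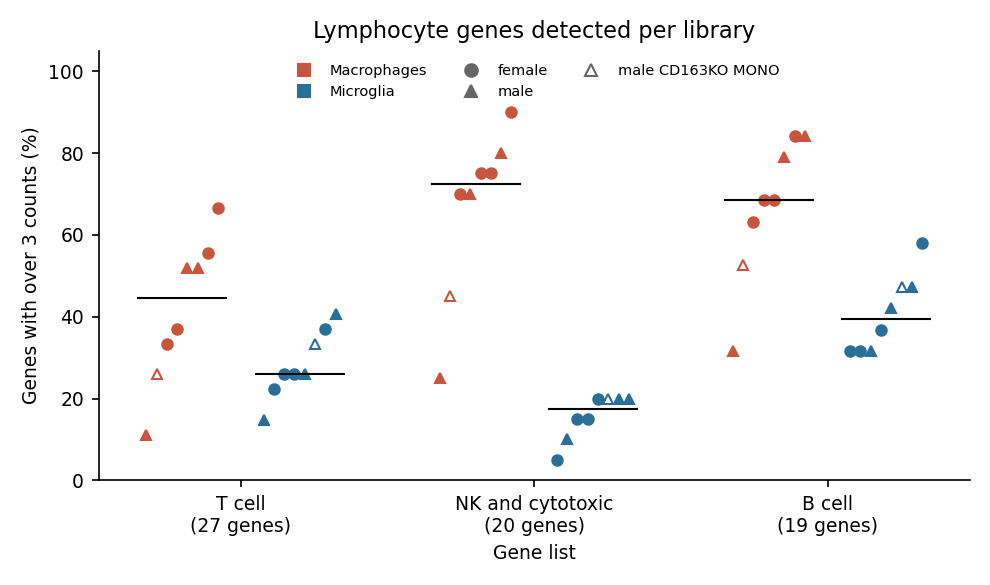
Share of the T cell (27), NK and cytotoxic (20) and B cell (19) genes with over 3 estimated counts in each library, the marker genes included, with macrophages in red, microglia in blue, circles for females, triangles for males, open triangles for MONO-CD163KO males and bars for medians. The NK genes separate the populations most, with 5 to 18 genes per macrophage library against 1 to 4 in microglia, and the male PFF-WT macrophage library holds the fewest of each list among macrophages.

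Counted over libraries, 5 to 18 of 20 NK and cytotoxic genes had over 3 counts in a macrophage library and 1 to 4 in a microglia library. For the 19 B cell genes it was 6 to 16 and 6 to 11, and for the 27 T cell genes 3 to 18 and 4 to 11, so that these ranges overlapped. The male PFF-WT macrophage library, which listed the fewest transcripts, held 3 T cell, 5 NK and 6 B cell genes and at the same time the highest counts of Nkg7, Cd3d, Ptprcap and Jchain, although Nkg7 was highest in MONO-WT males with the TMM factors (117.9 against 96.6). The other cell types of the macrophage gate moved with these genes between the populations. All 12 neutrophil genes had over 3 counts in every macrophage library, with a summed level of 22112.5 to 134489 FPKM, against 947 to 2706 in microglia. All 12 neutrophil and all 10 border-associated macrophage genes were called higher in macrophages, and their part in the levels of the lymphocyte genes was not tested.

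The adaptors that share the motif shown above were present in both populations at far higher levels than the lymphocyte chains. Tyrobp was at 2364 to 5015 FPKM in macrophages and 1613 to 4540 in microglia and was not called, and Fcer1g was at 2739 to 8535 and 2411 to 4743 (log2 fold change 2.74, edgeR adjusted p = 0.0186). Hcst, an NK and myeloid adaptor that signals through another motif, was at 32.7 to 111 and 16.9 to 46.6 FPKM (2.35, adjusted p = 0.00334). In microglia, Cd79b was thus the receptor chain with this motif from the lymphocyte list that was found in every library.

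Whether the injected α-syn, the genotype or the sex changed lymphocyte RNA was tested within each population over 7 libraries, with the 3 factors as additive terms. In macrophages 8 of the 9 genes were tested and in microglia 3 (Nkg7, Cd79b and Ms4a1). In none of the 6 comparisons was a gene of the list called by edgeR or by DESeq2. The share of all genes called was 0% for PFF against MONO, 0.00834% (1 of 11988 genes) for CD163KO against WT and 0% for males against females in macrophages, and 0% in each of the 3 comparisons in microglia, so few genes of any kind passed. At an unadjusted p under 0.05 edgeR found only Cd3g of the list, for sex in macrophages (adjusted p = 1.00), and 125, 79 and 152 of all genes in macrophages and 765, 166 and 215 in microglia. DESeq2 found 1 gene of the list at that limit in each macrophage comparison and none in microglia. For sex, the 5 label-check genes (Cd163 and Y-linked genes) had a median log2 fold change of 9.29 in macrophages and 8.26 in microglia. None of them was called by edgeR, so the absence of a call here does not show the absence of a difference. With 1 library per combination, the interactions of the factors are part of the residual, and a difference that exists in 1 sex only cannot be told apart from the variation between libraries.

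For PFF against MONO in macrophages, the 3 matched pairs outside the excluded males gave the same direction for Gzma, Cd79a and Ms4a1, on library totals and with the TMM factors. Gzma was at 27.4, 22.6 and 33.8 CPM with MONO (WT females, CD163KO females, WT males) and at 11.7, 22.2 and 9.13 CPM with PFF. In the pair of CD163KO females the counting intervals, 20.1 to 25.4 and 19.6 to 25.0 CPM, overlapped. PFF-CD163KO males, tested without a partner, were at 9.74 CPM. Its log2 fold change was -0.83 (95% interval -2.35 to 0.70, edgeR adjusted p = 1), and without 1 library in turn it ranged from -1.49 (without PFF-WT females) to -0.24 (without MONO-WT males). Cd79a was at 12.8, 7.03 and 20.3 CPM with MONO and at 5.93, 1.56 and 0 CPM with PFF. PFF-CD163KO males, tested without a partner, were at 12.0 CPM, so that the treatments overlapped, as they did with the TMM factors (13.3 to 21.3 with MONO, 0 to 24.8 with PFF). The fold was -0.71 (-4.78 to 3.35, adjusted p = 1). Without 1 of the libraries in turn, the fold of Cd79a ranged from -5.91 (without PFF-WT females) to -0.28 (without PFF-WT males), and it was -3.14 without PFF-CD163KO males and -1.26 without MONO-CD163KO females. Ms4a1 was at 1.87, 0.646 and 7.86 CPM with MONO and at 0.0933, 0.0822 and 0 CPM with PFF, the latter from 2, 1 and 0 counts, but PFF-CD163KO males had 41 counts (1.94 CPM), against 0 in the excluded MONO-CD163KO males (-3.08, -9.12 to 2.96, adjusted p = 1). Its fold ranged from -5.94 to -2.30 without 1 library in turn. The neutrophil genes were lower with PFF in the same 3 pairs, with a summed level of 120958, 98601 and 118330 FPKM with MONO and 22112.5, 32858 and 71088 with PFF. PFF-CD163KO males had the highest sum of all 8 macrophage libraries, 134489 FPKM, against 82140 in the excluded MONO-CD163KO males. The median log2 fold change of the 12 genes was -0.87, and none was called (1 at an unadjusted p under 0.05 in edgeR). Their part in the levels of Gzma, Cd79a and Ms4a1 was not tested.

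The direction of Nkg7 depended on the scaling. On library totals it was at 63.1, 34.99 and 113 CPM with MONO and at 17.1, 31.8 and 140 CPM with PFF in the same order, lower with PFF in both female pairs and higher in WT males. Divided by the TMM factors, it was lower with PFF in 3 of 3 pairs, at 81.1, 66.1 and 117.9 with MONO and 44.9, 46.9 and 96.6 with PFF (log2 fold change -0.56, 95% interval -1.39 to 0.28, edgeR adjusted p = 1). Cd79b was at 29.2, 16.9 and 51.0 CPM with MONO and at 7.93, 28.7 and 42.3 CPM with PFF, higher in CD163KO females only (-0.48, -1.74 to 0.78, adjusted p = 1). Ptprcap went the other way, higher with PFF in 2 of 3 pairs on library totals and in 3 of 3 with the TMM factors, with 137, 0 and 0 counts with MONO and 137, 37 and 773 with PFF in the same order (3.98, -2.42 to 10.38, adjusted p = 1). Cd3d was higher in 1 pair and lower in 1 (1.43, -5.11 to 7.98, adjusted p = 1). Cd3g was lower with PFF in the 2 pairs with over 3 counts (-2.09, -8.16 to 3.98) and was not called. Its counts went from 62 to 28 in WT females and from 42 to 0 in CD163KO females. Over the 8 genes tested the median log2 fold change was -0.63, and that of all genes was -0.11.

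**Figure D5:**
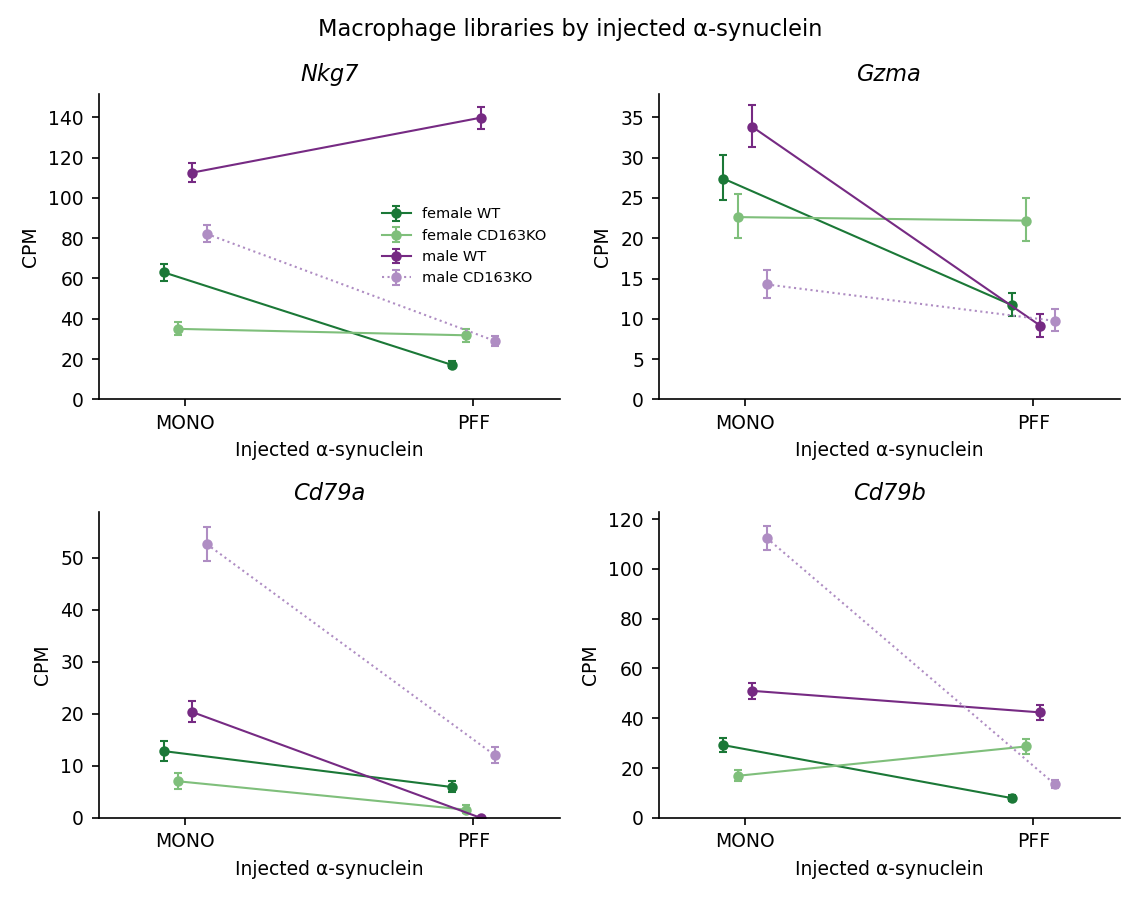
Level in CPM of Nkg7, Gzma, Cd79a and Cd79b in the macrophage libraries, with MONO on the left and PFF on the right, a line for each sex and genotype and exact 95% intervals that cover counting error only. The dotted line holds the excluded MONO-CD163KO males. On these library totals Gzma and Cd79a are lower with PFF on every line, by little for Gzma in CD163KO females, and Nkg7 is higher with PFF in WT males, whereas with the TMM factors Nkg7 is lower there and Gzma is higher on the dotted line (9.84 to 20.1).

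For CD163KO against WT in macrophages, Cd3d and Ptprcap were lower in CD163KO in all 3 matched pairs. Cd3d had 0 counts in MONO-CD163KO and PFF-CD163KO females against 48 and 31 in WT, and 88 against 469 in PFF males. Ptprcap had 0 and 37 against 137 and 137, and 44 against 773. Neither was called (edgeR adjusted p = 1 for both), and in MONO-WT males Ptprcap was at 0 and Cd3d at 8 counts. The fold of Nkg7 was -0.26 (95% interval -1.10 to 0.59), that of Gzma 0.39 (-1.15 to 1.92) and that of Cd79b 0.20 (-1.11 to 1.51), with adjusted p = 1 each. With the TMM factors Gzma was higher in CD163KO in 3 of 3 pairs, against 2 of 3 on library totals. The sign of its fold turned with the MONO-CD163KO males included (-0.01), and that of Cd79b with library totals only (-0.24) and limma (-0.25). Without 1 library in turn, the fold of Gzma ranged from 0.02 to 1.08. The median over the 8 genes was -0.04 and that of all genes 0.14.

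For males against females in macrophages, no gene with over 3 counts in each of the 3 pairs went the same way in all of them in CPM on library totals, but with CPM divided by the TMM factors Nkg7 was higher in males in 3 of 3. On library totals Nkg7 was at 113 against 63.1 CPM in MONO-WT, 140 against 17.1 in PFF-WT and 29.0 against 31.8 in PFF-CD163KO (log2 fold change 0.62, 95% interval -0.23 to 1.47, edgeR adjusted p = 1.00). Gzma was at 33.8 against 27.4, 9.13 against 11.7 and 9.74 against 22.2 CPM (-0.80, -2.30 to 0.71, adjusted p = 1.00), and the fold of Cd79b was 0.19 (-1.06 to 1.44). Cd3g, with macrophage counts from females only, was lower in males in the 2 pairs with over 3 counts (-8.53, -16.9 to -0.12). Ms4a1 was higher in males in 2 of 2 such pairs (2.59, -3.11 to 8.30), and neither was called. The median over the 8 genes was 0.30 and that of all genes -0.18.

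In microglia, Cd79b was the gene of the list with counts enough to measure. Its log2 fold change was -0.01 for PFF against MONO (95% interval -0.63 to 0.61), -0.07 for CD163KO against WT (-0.70 to 0.57) and 0.20 for males against females (-0.44 to 0.83), with edgeR adjusted p from 0.997 to 1.00. The intervals leave room for a change of up to 0.83 on the log2 scale. The signs of all 3 turned under some of the alternatives, and the PFF comparison turned to 0.04 without the library labelled female MONO-CD163KO, which held Y-linked counts. Without it the fold was -0.12 for genotype and 0.21 for sex, neither called, and 3 of all genes were called for sex, against 0 with it. The other genes reached at most 37 counts. The summed level of the 8 genes other than Cd79b was 0 to 6.65 CPM in a microglia library (median 1.38) and 44.5 to 217 CPM in a macrophage library (median 95.8). RNA of the CD3 chains was not detectable above 3 counts in microglia of any genotype, sex or treatment, while 3 counts were 0.16 to 0.35 CPM.

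Ptprcap, Foxp3, Tcf7 and Cd27 were, however, found above 3 counts in microglia of PFF-CD163KO females, at 31, 45.8, 17 and 9 counts, where all 3 CD3 chains were at 0. The last 3, the regulator of regulatory T cells, a T cell transcription factor and a costimulatory receptor, named after their values were seen, were above 3 counts in no other microglia library. Such genes were spread over the libraries. Of 67 T cell, NK and B cell genes, 14 were above 3 counts in 1 microglia library only, 3 in PFF-CD163KO females, 3 in PFF-WT males, 2 each in PFF-WT females, MONO-CD163KO males and PFF-CD163KO males, 1 each in MONO-WT females and MONO-WT males, and none in the library labelled MONO-CD163KO females.

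The genes whose pattern over the 8 macrophage libraries was most like that of a marker gene were sought among 9065 genes with a mean FPKM of at least 1, by Pearson's r of log2(CPM + 1) with TMM factors, as a description with no test. The points are 8 libraries that differ in sex, genotype, treatment and depth. For Cd3e, at 0 in 7 of them, they were Adgra3, Ptov1, Lgalsl and Arl8a (r = 0.88 to 0.98). For Gzma they were Son, Prkra, Cox19, Bcdin3d and Zmat5 (0.98 to 0.99), and for Cd79a Tmem138, Ppil1, Iqgap2, Wdr70 and Fdx2 (0.97 to 0.99). None of these genes is on a lymphocyte list used here. Between the markers themselves, r was -0.14 for Gzma and Nkg7, 0.30 for Cd79a and Cd79b, 0.35 for Cd3e and Cd3g and 0.16 for Cd3e and Cd3d. Over all pairs of these 3 genes with another marker it ranged from -0.58 to 0.57.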

How the data were processed

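The 16 tables, 1 per combination of population, sex, genotype and treatment, list RefSeq transcripts. Per the methods, the authors removed rRNA and low-quality reads, mapped with Bowtie2 and estimated expression with RSEM, and the submitters' processing notes name mm10. The expected counts are raw as deposited, and the FPKM deposited beside them scale these to transcript length and library. The tables give depth as estimated counts only, and 27632 of 27787 transcripts (99.44%) matched a symbol in the RefSeq annotation (GRCm38.p6), the source of the gene coordinates. The genes and the further lists were chosen with earlier results of these data known.

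Counts were summed per gene and rounded. edgeR 4.0.16 (R 4.3.3) was run with TMM factors, its filter on low counts and quasi-likelihood tests, adjusted by the Benjamini-Hochberg method over all genes tested, with calls at an adjusted p of at most 0.05 and a log2 fold change of at least 1, the limits the study states. Populations were compared over 7 pairs with the combination as a block, since by the methods both were sorted from the same brains. In the female MONO-CD163KO pair, the microglia library held Y-linked counts and the macrophage library none, and the pair was kept under its labels. Deviations of paired libraries correlated at -0.17 to 0.20 over 8036 genes. Within a population, sex, genotype and treatment were additive terms over 7 libraries (3 residual degrees of freedom). MONO-CD163KO males, excluded by the study, entered an alternative. Batches are not labelled per library. Further alternatives were RLE factors, library totals, DESeq2 1.42.0, limma 3.58.1 on log2(FPKM + 1) where 3 libraries reached an FPKM of 1, no filter, no limit on the fold, no block and leaving out each library. The procedure was tested on simulated data. Of each further lymphocyte list, the up to 4 genes highest in macrophages and its defining genes are named, with others where said, and a few that the rule names are not reported here. Proteins were translated from GENCODE vM21 transcripts with Biopython 1.88. Gzmk, Pax5, Ighm, Iglc2 and Il5 were listed in no table. Intervals of CPM are exact (Clopper-Pearson, 95%). Figures used matplotlib 3.10.9.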

Additional observations from a re-analysis of the deposited data

Results flagged for a closer look

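The macrophage library of MONO-CD163KO males, left out of the tests, held more Cd79a and Cd79b than both control libraries of WT mice given MONO, which flagged it. Cd79a was at 52.6 CPM (996 counts, exact 95% interval 49.4 to 56.0), against 12.8 and 20.3 CPM in the controls. Cd79b was at 112 CPM (2128 counts, interval 107.7 to 117), against 29.2 and 51.0 CPM. Divided by the TMM factors, the differences were smaller, with Cd79a at 36.3 against 16.5 and 21.3 and Cd79b at 77.5 against 37.5 and 53.4. Ms4a1, Ptprcap and the CD3 chains were at 0 in the same library. It is 1 of the 2 macrophage libraries that listed the fewest transcripts, and the intervals cover counting error only.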

How the results depend on the processing

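Of the lymphocyte markers, 5 were called between the populations, with 3 to 6 called without 1 library in turn, which drops its pair, and 4 to 6 under the other alternatives (4 with MONO-CD163KO males, 6 with limma, which added Cd79b as lower). Nkg7, Gzma and Cd79a were called under all 23 alternatives. Cd3d and Ptprcap were lost without the female MONO-WT, female PFF-WT or male PFF-CD163KO pair (3 called), and without the male PFF-WT pair Cd3g was called as well (adjusted p = 0.0434, 6 called). Leaving out both of these libraries by name was added after seeing the data and gave the same values. Leaving out the replicate block changed no call of these genes (5 called). Own pairs correlated best in 1 of 7 cases. Over all genes, 2311 calls became 6304 with library totals only, 4263 with DESeq2, 5870 with limma and 4042 without the male PFF-WT pair, and the share of calls higher in macrophages went from 63.1% to 9.47%, 45.8%, 10.3% and 54.5%, and to 45.7% with no filter. The cause was not tested. Within populations, no marker was called under any of the 14 alternatives in macrophages or 15 in microglia, with up to 26 of all genes called by DESeq2. The fold of Cd79b changed sign most. Between the populations it was 0.04193 with the MONO-CD163KO males, 0.05865 without both male PFF-WT libraries and -0.1496 to 0.05865 without 1 library. For CD163KO against WT in macrophages it was -0.2427 with library totals, -0.245 with limma and -0.09239 to 0.5294 without 1 library, and in microglia 0.4037, 0.445, 0.01895 with the MONO-CD163KO males and -0.2176 to 0.147. For sex it was -0.1178 to 0.4731 in macrophages without 1 library, and in microglia -0.2939 with library totals and -0.3728 with limma. For PFF against MONO in microglia it was 0.04271 without the library labelled female MONO-CD163KO and -0.1361 to 0.1193 without 1 library. Cd3d, for PFF against MONO in macrophages, was at -0.1649 to 6.562 and Ptprcap at 2.385 to 10.84 without 1 library. Gzma, for CD163KO against WT in macrophages, was at -0.009567 with the MONO-CD163KO males and at 0.01556 to 1.079 without 1 library. Leaving out a library within a population leaves 2 residual degrees of freedom. Reading the matched pairs with the TMM factors of all 16 libraries was also added after seeing the data.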
